A study of Mus musculus with 18 samples.

Results

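Genes that make cholesterol and fatty acids, sense sterols or export them were followed in 18 mouse melanoma allografts. The set of 39 genes was listed by function, and a gene's probe sets were taken where the array annotation gave that gene as their only symbol. Of these 39 genes, 37 had such a probe set, among 18193 genes with one on the array. Acat2 and Nr1h2 were not analysed here. The 37 measured genes comprise 17 of 18 sterol synthesis genes, all 6 sterol sensing genes, 4 of 5 genes of the liver X receptor (LXR) and sterol efflux, and all 10 fatty acid synthesis genes. Their signal came from 84 probe sets.

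The tumours grew from iNRAS-475, a single mouse melanoma line in which doxycycline maintains an NRAS oncogene. Cells were placed in the skin of nude mice, hosts without mature T cells, and every mouse drank 2 mg/ml doxycycline until tumours measured 200 to 500 mm3 at 6 weeks. In the NRAS-off arm doxycycline was taken away for 4 days. In the MEK inhibitor arm AZD6244 (selumetinib, which blocks the kinases downstream of RAS and RAF) was given at 100 mg/kg for 4 days, with doxycycline not stated to have been stopped. The vehicle arm received vehicle, for a time that the labels do not give. Each arm held 6 distinct tumours, and the labels give neither the age of the mice, nor the NRAS allele, nor whether any tumours shared a mouse. Loss of the oncogene and loss of doxycycline cannot be told apart in this design. RNA came from a piece of about 50 mg of each tumour with its host cells.

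Cells adjust sterol and fatty acid synthesis mainly through SREBP transcription factors. These are held in the endoplasmic reticulum by SCAP and INSIG when sterols are plentiful, and are released to switch on the synthesis genes when sterols fall. LXR works the other way, since it is activated by oxidised sterols and raises the pumps that carry cholesterol out of the cell as well as Srebf1, the gene for the SREBP that favours fatty acid synthesis. Growth factor signalling through RAS, ERK and mTOR is known to act on SREBP in tumour cells.

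The promoters of Hmgcs1, Idi1, Abca1 and Fasn show letters known from elements of this control, where an upper-case run marks the SRE core (TCACNCCAC), a CCAAT box (CCAAT, or ATTGG on the given strand where the box lies on the other) or an LXR element of the DR4 kind. They are RefSeq windows on GRCm38.p6 running 250 bases before to 50 bases after the annotated start, 5′ to 3′ along the gene. Hmgcs1 is at chr13:119690101-119690400 on the plus strand and holds an SRE core between CCAAT boxes. Idi1 is at chr13:8885356-8885655 on the plus strand and holds CCAAT boxes but no SRE core as spelled. Abca1 is at chr4:53159846-53160145 on the minus strand, and Fasn at chr11:120824498-120824797 on the minus strand. The same DR4 letters, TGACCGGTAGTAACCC, occur in both of these.
Hmgcs1: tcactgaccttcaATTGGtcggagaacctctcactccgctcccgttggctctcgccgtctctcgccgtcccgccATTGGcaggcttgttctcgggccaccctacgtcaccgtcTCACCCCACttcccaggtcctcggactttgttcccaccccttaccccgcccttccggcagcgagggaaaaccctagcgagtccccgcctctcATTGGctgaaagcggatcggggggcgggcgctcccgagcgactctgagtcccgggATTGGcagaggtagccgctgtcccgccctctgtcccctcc
Idi1: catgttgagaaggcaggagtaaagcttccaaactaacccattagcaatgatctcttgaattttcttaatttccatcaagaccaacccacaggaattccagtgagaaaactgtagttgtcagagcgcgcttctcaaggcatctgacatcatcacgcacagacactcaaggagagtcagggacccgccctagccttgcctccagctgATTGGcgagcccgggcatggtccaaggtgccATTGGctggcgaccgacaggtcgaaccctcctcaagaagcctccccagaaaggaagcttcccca
Abca1: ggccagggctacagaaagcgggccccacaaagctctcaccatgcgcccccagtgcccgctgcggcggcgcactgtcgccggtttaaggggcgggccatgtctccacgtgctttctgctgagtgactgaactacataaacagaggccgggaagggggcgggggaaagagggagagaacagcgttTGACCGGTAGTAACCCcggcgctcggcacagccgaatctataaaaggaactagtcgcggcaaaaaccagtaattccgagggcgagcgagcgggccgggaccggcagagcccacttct
Fasn: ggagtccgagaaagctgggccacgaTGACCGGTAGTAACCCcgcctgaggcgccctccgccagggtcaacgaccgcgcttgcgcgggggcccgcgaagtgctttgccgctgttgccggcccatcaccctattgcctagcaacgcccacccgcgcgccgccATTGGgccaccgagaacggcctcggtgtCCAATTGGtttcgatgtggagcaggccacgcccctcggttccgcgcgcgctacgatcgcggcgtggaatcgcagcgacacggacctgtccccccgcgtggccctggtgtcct
RefSeq windows were matched for 31 of the 39 genes, with 40 windows in all. Fdps, Fdft1, Sqle, Stard4, Abcg1, Scd1, Scd2 and Fads1 had no window, so their promoters were not searched. A CCAAT box, searched on both strands, lay in a window of 14 of 15 sterol synthesis genes, 4 of 5 sensing genes, 4 of 7 fatty acid synthesis genes and 1 of 4 LXR and efflux genes, against 41.98% of the 11995 tested genes with a window. In Fasn, CCAAT boxes on opposite strands overlap each other. The CCAAT box binds NF-Y, a known partner of SREBP. A GC box (GGGCGG, not marked above) lay in 14 of 15 sterol synthesis genes and 5 of 5 sensing genes. It also lay in 3 of 7 fatty acid synthesis genes and 2 of 4 LXR and efflux genes, against 63.25% of tested genes. An E-box (CACGTG, not marked above) lay in 3, 2, 1 and 1 genes of these classes in the same order, against 11.09%. The SRE core lay in Hmgcs1 alone among the 31 genes with a window, against 1.48% of tested genes. DR4 matches lay in Abca1, Fasn and Srebf1, the last reading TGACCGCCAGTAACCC, against 0.15% of tested genes. The DR4 pattern was RGKTYA, any 4 bases, then MGKTYA, on either strand. In it R is A or G, K is G or T, Y is C or T, and M is A or C. Both the matches and the share depend on that choice of letters. The 1 sterol synthesis gene with a window but no CCAAT match was Acat2, which had no array value. These are matches of letters and not shown sites of binding.

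All 18 arrays had medians between 72.3 and 78.5 intensity units, and arrays of 1 arm correlated at 0.978 to 0.997. The 3 Nras probe sets fell by 0.19, 0.43 and 0.28 on the log2 scale in NRAS-off tumours and by 0.27, 0.31 and 0.23 in MEK inhibitor tumours, both against vehicle. Adjusted p for NRAS-off against MEK inhibitor was 0.31, 0.196 and 0.451, and it is not stated whether they detect the transgene, so they are no check of the arms. Of 6 melanocytic markers above the filter, 4 rose and none fell with the oncogene off (median 0.63, highest 2.30 for Pmel), and 2 rose and none fell with the inhibitor (median 0.22). Their mean against the vehicle mean spanned 0.44 to 1.01 in NRAS-off tumours, 0.17 to 0.46 in MEK inhibitor tumours and −0.11 to 0.07 in vehicle tumours. The summed intensity of all 9 measured melanocytic markers instead had its highest median with the inhibitor. That sum spanned 9712 to 13076 in NRAS-off, 12464.5 to 17757 in MEK inhibitor and 9107 to 11193 in vehicle tumours. Over all genes 31.8% rose with the oncogene off and 24.3% with the inhibitor. The part of melanocytic signal in the lipid gene results was not tested. Sox10 averaged 9564, 13051 and 9200 intensity units in NRAS-off, MEK inhibitor and vehicle tumours, while Dct averaged 59.5, 55.8 and 41.9, and Tyrp1, Gpr143 and Trpm1 were below the filter. NRAS-off replicate 2 stood apart by its keratinocyte transcripts, whose mean over 9 genes was 4.11 log2 units above the vehicle mean, against 0.93 in the next tumour, MEK inhibitor replicate 6. Within the NRAS-off arm that same tumour was highest for 12 of 17 sterol synthesis genes, and results without it are given where they differ.

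NRAS-off tumours carried less transcript of nearly the whole sterol pathway than vehicle tumours. Of the 37 measured genes, 34 changed at an adjusted p under 0.05 (limma, Benjamini-Hochberg over 15005 genes), 25 falling and 9 rising. Of all genes tested, 59.3% changed, with 27.5% falling and 31.8% rising. Tumours of the arms did not overlap for 27 of 37 genes, against 39.2% of all genes tested. Sterol synthesis genes fell in 15 of 17 cases, with a median difference of −0.84 on the log2 scale. In whole tumours, fewer cells that use the pathway and less RNA per cell cannot be told apart.

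MEK inhibitor tumours also carried less transcript of most sterol synthesis genes than vehicle tumours. Against vehicle 25 of 37 genes changed, 18 falling and 7 rising, where 45.2% of all genes changed, 20.9% falling and 24.3% rising. The arms did not overlap for 16 of the 37, against 25.5% of all genes. Sterol synthesis genes fell in 13 of 17 cases, with a median of −0.40. NRAS-off and MEK inhibitor tumours differed at 25 of the 37 genes, 20 lower and 5 higher with the oncogene off, where 47% of all genes differed, 22.7% lower and 24.3% higher. In that comparison 13 of 37 genes did not overlap, against 28.3% of all genes. The median over all 15005 genes was 0.00 for NRAS-off against vehicle, 0.01 for MEK inhibitor against vehicle and −0.01 for NRAS-off against MEK inhibitor.

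**Figure D1:**
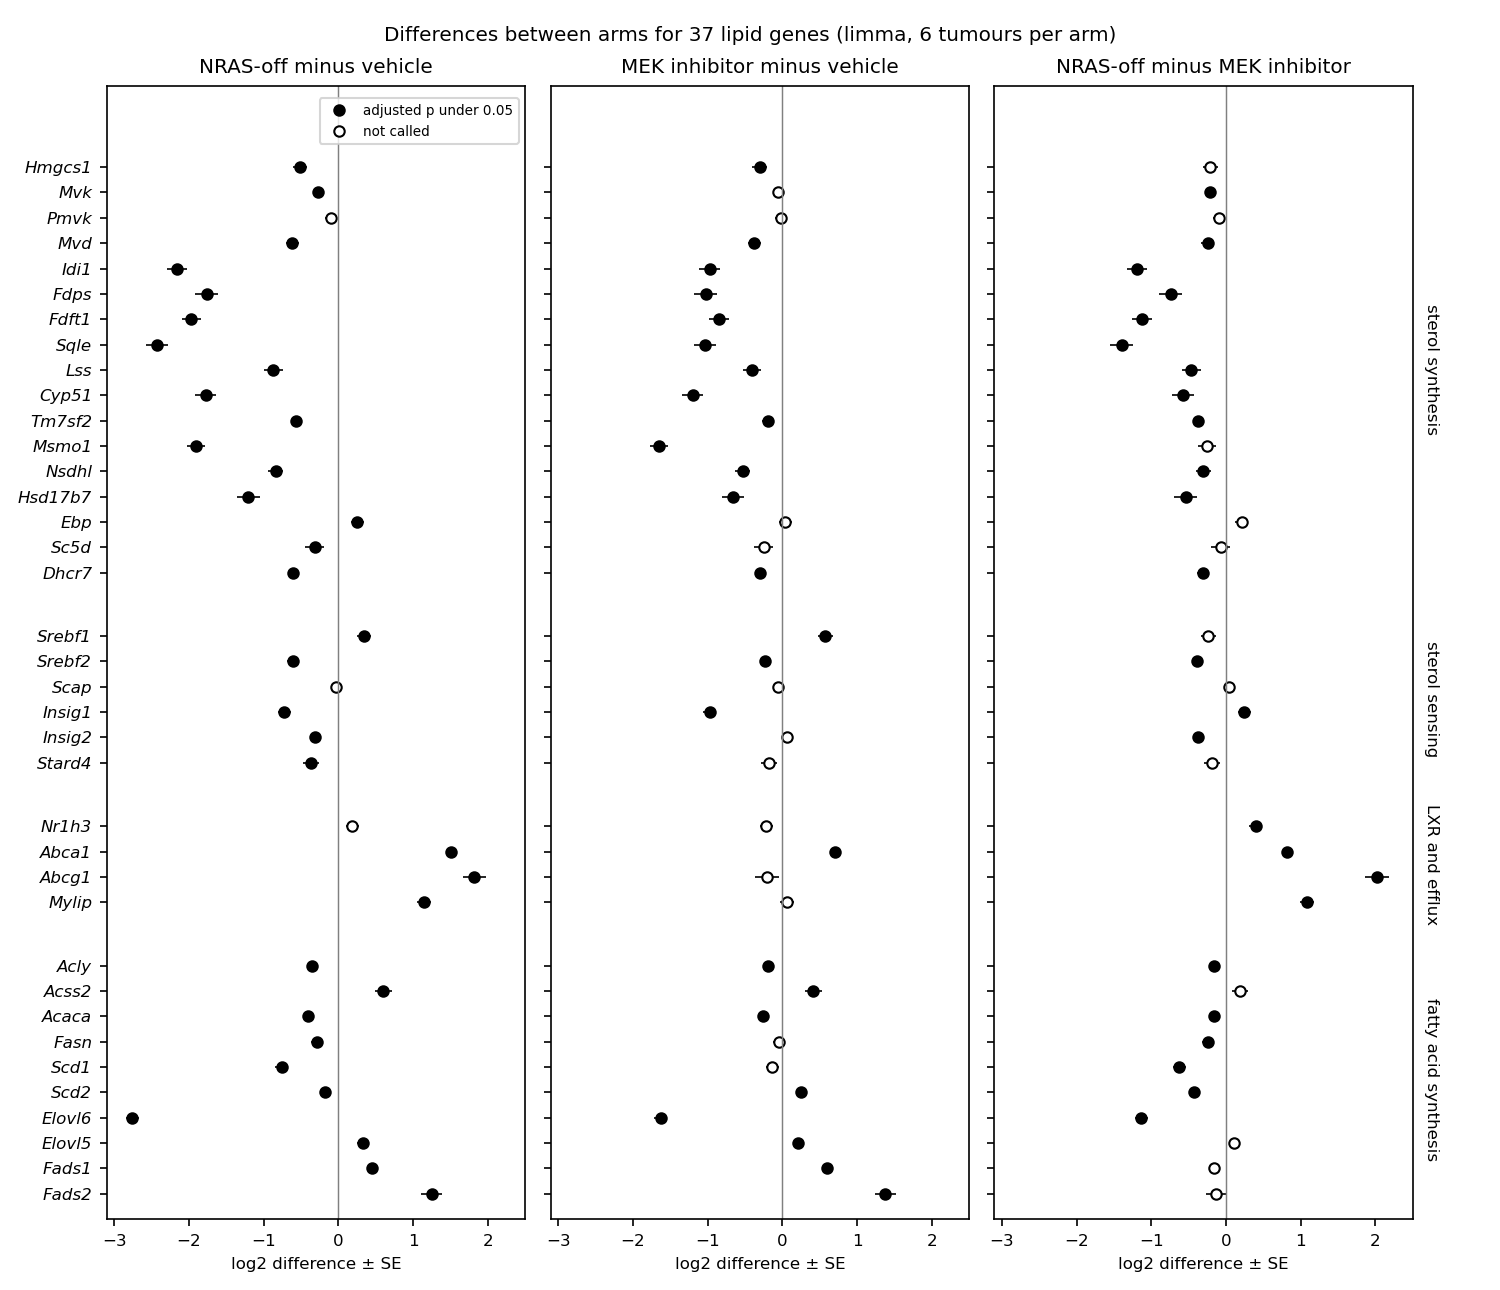
Log2 differences ± SE for the 37 genes in the 3 comparisons, from limma with 6 tumours per arm, on the log2(intensity + 16) scale. Filled points passed an adjusted p under 0.05. Sterol synthesis genes lie left of 0 against vehicle in both arms, except Ebp at 0.25 with the oncogene off and 0.04 with the inhibitor, and the LXR and efflux genes lie right of 0 with the oncogene off.

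Among the opening steps of the mevalonate pathway, no gene differed by 1 log2 unit. Hmgcs1, which makes the HMG-CoA from which the pathway starts, had a lowest, median and highest intensity of 1561, 1674 and 2274 in NRAS-off tumours, 1722, 2057 and 2308 in MEK inhibitor tumours, and 2111, 2446 and 3045 in vehicle tumours. It fell by 0.51 ± 0.10 (SE) with the oncogene off (adjusted p = 0.000174) and by 0.30 ± 0.10 with the inhibitor (adjusted p = 0.0178), and both arms overlapped vehicle. Mvk, the mevalonate kinase, fell by 0.27 ± 0.07 with the oncogene off (adjusted p = 0.00158) and differed by −0.06 ± 0.07 with the inhibitor (adjusted p = 0.506). Pmvk, the next kinase, passed in no comparison, with −0.10 ± 0.08 with the oncogene off (adjusted p = 0.3). Mvd, which decarboxylates the product to the first isoprene unit, fell by 0.62 ± 0.08 and 0.37 ± 0.08 in NRAS-off and MEK inhibitor tumours (adjusted p = 3.9e-06 and 0.0013).

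At the isoprene isomerase and the step after it the drops were larger. Idi1, which interconverts the isoprene units, measured 90.7, 118 and 161 (lowest, median, highest) in NRAS-off tumours, 211, 297 and 367 in MEK inhibitor tumours, and 478, 573 and 739 in vehicle tumours. The 3 arms did not overlap. Idi1 was 4.48-fold lower with the oncogene off (log2 −2.16 ± 0.14, adjusted p = 1.4e-10) and 1.96-fold lower with the inhibitor (−0.97 ± 0.14, adjusted p = 1.11e-05). Fdps, which joins isoprene units into farnesyl diphosphate, measured 171, 196 and 292 in NRAS-off tumours, 261, 373 and 437 in MEK inhibitor tumours, and 541, 724 and 1060 in vehicle tumours. Both treated arms lay below every vehicle tumour, while they overlapped each other. Fdps was 3.40-fold lower with the oncogene off (−1.76 ± 0.15, adjusted p = 1.3e-08) and 2.03-fold lower with the inhibitor (−1.02 ± 0.15, adjusted p = 2.58e-05).

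Fdft1 (squalene synthase) and Sqle (squalene epoxidase) carry the pathway past its branch point and into sterols. Fdft1 measured 315, 399 and 583 in NRAS-off tumours, 754, 966 and 1078 in MEK inhibitor tumours, and 1375, 1766 and 1975 in vehicle tumours. It was 3.91-fold lower with the oncogene off (−1.97 ± 0.13, adjusted p = 3.67e-10) and 1.80-fold lower with the inhibitor (−0.85 ± 0.13, adjusted p = 3.87e-05). Sqle measured 161, 218 and 393 in NRAS-off tumours, 531, 652 and 687 in MEK inhibitor tumours, and 1041, 1313 and 1496 in vehicle tumours. For Fdft1 and Sqle alike the arms did not overlap in any comparison, and the highest NRAS-off value of Sqle came from replicate 2. Sqle was 5.40-fold lower with the oncogene off and 2.05-fold lower with the inhibitor, and 2.63-fold lower in NRAS-off than in MEK inhibitor tumours (−1.40 ± 0.15, adjusted p = 3.08e-07). A second Fdft1 probe set fell alike by 1.78 and 0.86, whereas the remaining 2, with mean intensities of 48.0 and 46.3, were not called.

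**Figure D2:**
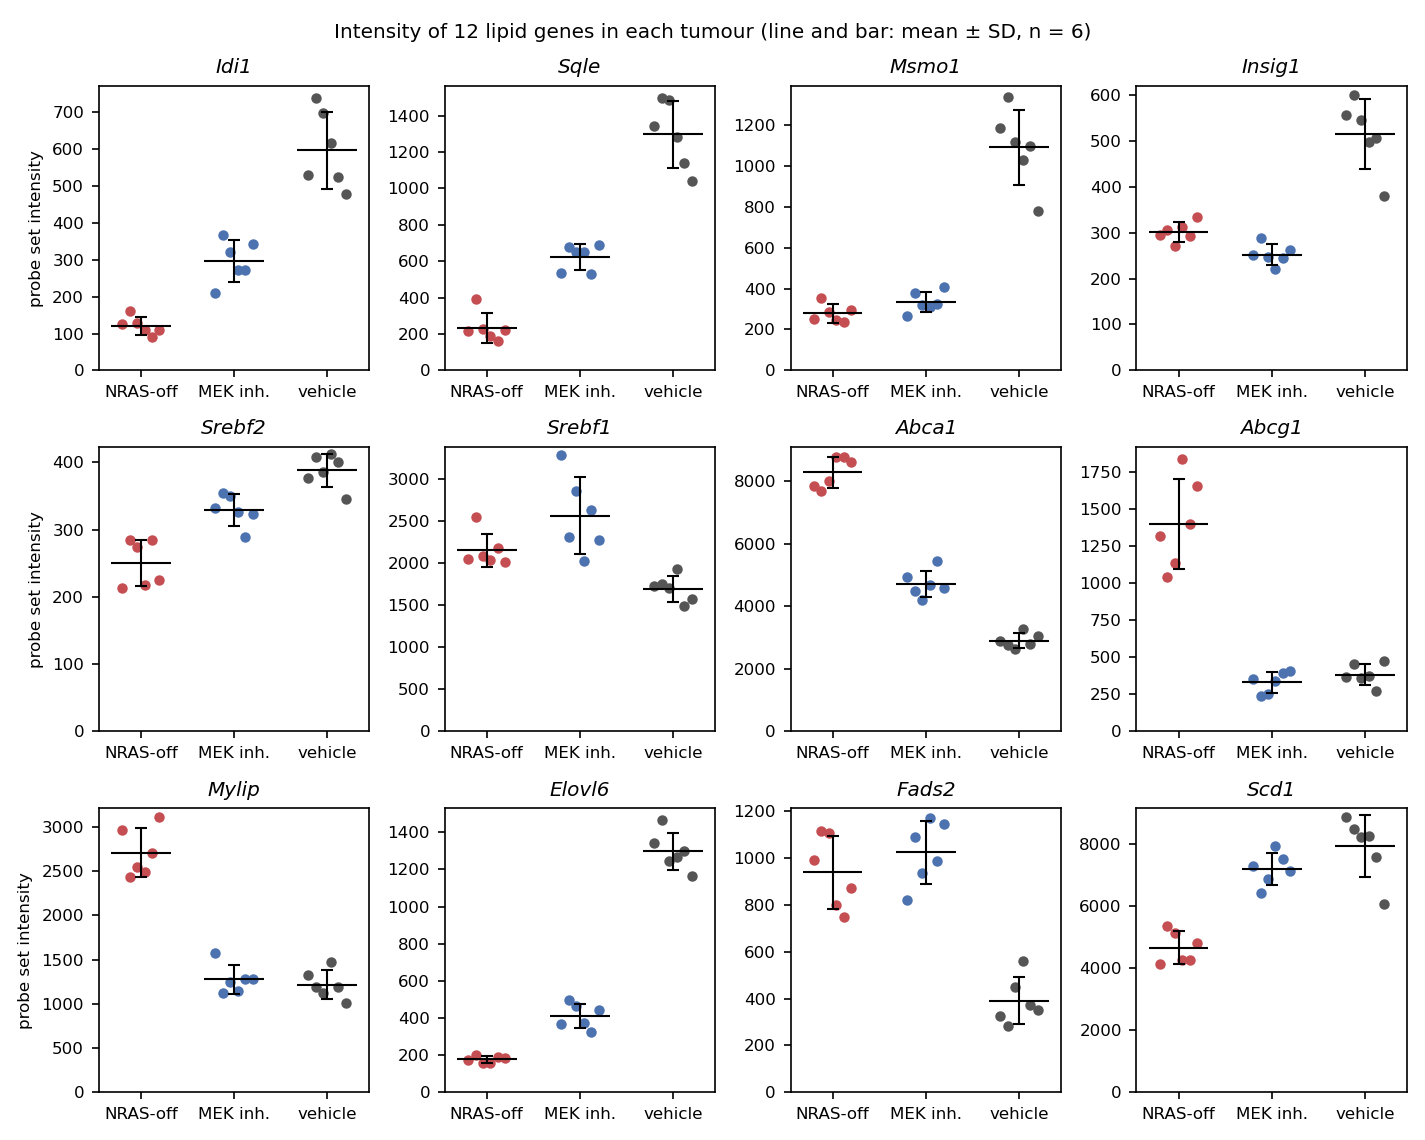
Intensity of 12 genes in each of the 18 tumours, with the arms in the order NRAS-off, MEK inhibitor and vehicle and the mean ± SD (n = 6 each) marked. Idi1, Sqle and Elovl6 form 3 separate levels, Msmo1 and Fads2 separate both treated arms from vehicle, and Abcg1 and Mylip separate the NRAS-off arm from the other arms.

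Among the enzymes that trim lanosterol to cholesterol, most fell against vehicle, and the difference between the treated arms varied from gene to gene. Cyp51, the lanosterol demethylase, measured 117, 152 and 197 in NRAS-off tumours, 172, 238 and 299 in MEK inhibitor tumours, and 449, 536 and 691 in vehicle tumours. It fell by 1.78 ± 0.14 with the oncogene off and 1.20 ± 0.14 with the inhibitor (adjusted p = 4.7e-09 and 1.87e-06). Msmo1, the methylsterol monooxygenase, measured 236, 268 and 355 in NRAS-off tumours, 265, 324 and 407 in MEK inhibitor tumours, and 780, 1107 and 1334 in vehicle tumours. The treated arms of Msmo1 overlapped broadly, and both lay under the lowest vehicle tumour. Msmo1 was 3.75-fold lower with the oncogene off and 3.14-fold lower with the inhibitor (−1.91 ± 0.12 and −1.65 ± 0.12, adjusted p = 1.75e-10 and 4.04e-09). NRAS-off minus MEK inhibitor was −0.25 ± 0.12 for Msmo1 (adjusted p = 0.0972), and without NRAS-off replicate 2 the difference passed. Its step partners in demethylation moved less: Nsdhl, a sterol dehydrogenase, fell by 0.84 ± 0.10 and 0.53 ± 0.10. Hsd17b7, the ketoreductase of the same complex, measured 210, 305 and 424 in NRAS-off tumours, 392, 418 and 518 in MEK inhibitor tumours, and 521, 692 and 917 in vehicle tumours. It fell by 1.20 ± 0.15 with the oncogene off and 0.66 ± 0.15 with the inhibitor (adjusted p = 1.05e-06 and 0.00117), with neither arm overlapping vehicle.

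Lss, which closes squalene epoxide into the lanosterol ring, fell by 0.87 ± 0.13 with the oncogene off and 0.40 ± 0.13 with the inhibitor. Tm7sf2, a sterol reductase, fell by 0.57 ± 0.07 and 0.20 ± 0.07, and Dhcr7, the reductase that yields cholesterol, by 0.61 ± 0.07 and 0.30 ± 0.07. The inhibitor's call for Tm7sf2 (adjusted p = 0.0359) was lost when single tumours were left out in 6 of the 18 refits. Sc5d, a sterol desaturase, fell by 0.32 ± 0.13 with the oncogene off (adjusted p = 0.0412), a call lost in 7 of those refits, and differed by −0.25 ± 0.13 with the inhibitor (adjusted p = 0.131). For each comparison 6 of the 18 refits left out a tumour of the third arm, which left the difference itself unchanged. A dimmer Sc5d probe set, with a mean intensity of 175, fell by 0.79 ± 0.12 and 0.63 ± 0.12. Ebp, the sterol isomerase, was the 1 sterol synthesis gene that rose with the oncogene off, by 0.25 ± 0.09 (adjusted p = 0.0182), with means of 923 ± 70.4 in NRAS-off, 798 ± 100.3 in MEK inhibitor and 776 ± 93.7 in vehicle tumours (SD, n = 6 each).

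Both comparisons against vehicle use the same vehicle tumours, so calls shared between them are not counted as a result. Between the treated arms 12 of 17 genes were lower with the oncogene off and none higher, with a median of −0.31. Over all genes 22.7% were lower and 24.3% higher. Averaged over the 17 genes and set against the vehicle mean, tumours spanned −1.25 to −0.76 log2 units in the NRAS-off arm, −0.71 to −0.42 in the MEK inhibitor arm and −0.21 to 0.22 in the vehicle arm. Within arms, NRAS-off replicate 5 was lowest for 11 of the 17 genes, vehicle replicate 2 highest for 11 and vehicle replicate 6 lowest for 11. Without NRAS-off replicate 2 the numbers that fell were 15, 13 and 14 for NRAS-off against vehicle, MEK inhibitor against vehicle and NRAS-off against MEK inhibitor. Of all 15005 genes, 4066, 3161 and 3365 fell in that refit.

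**Figure D3:**
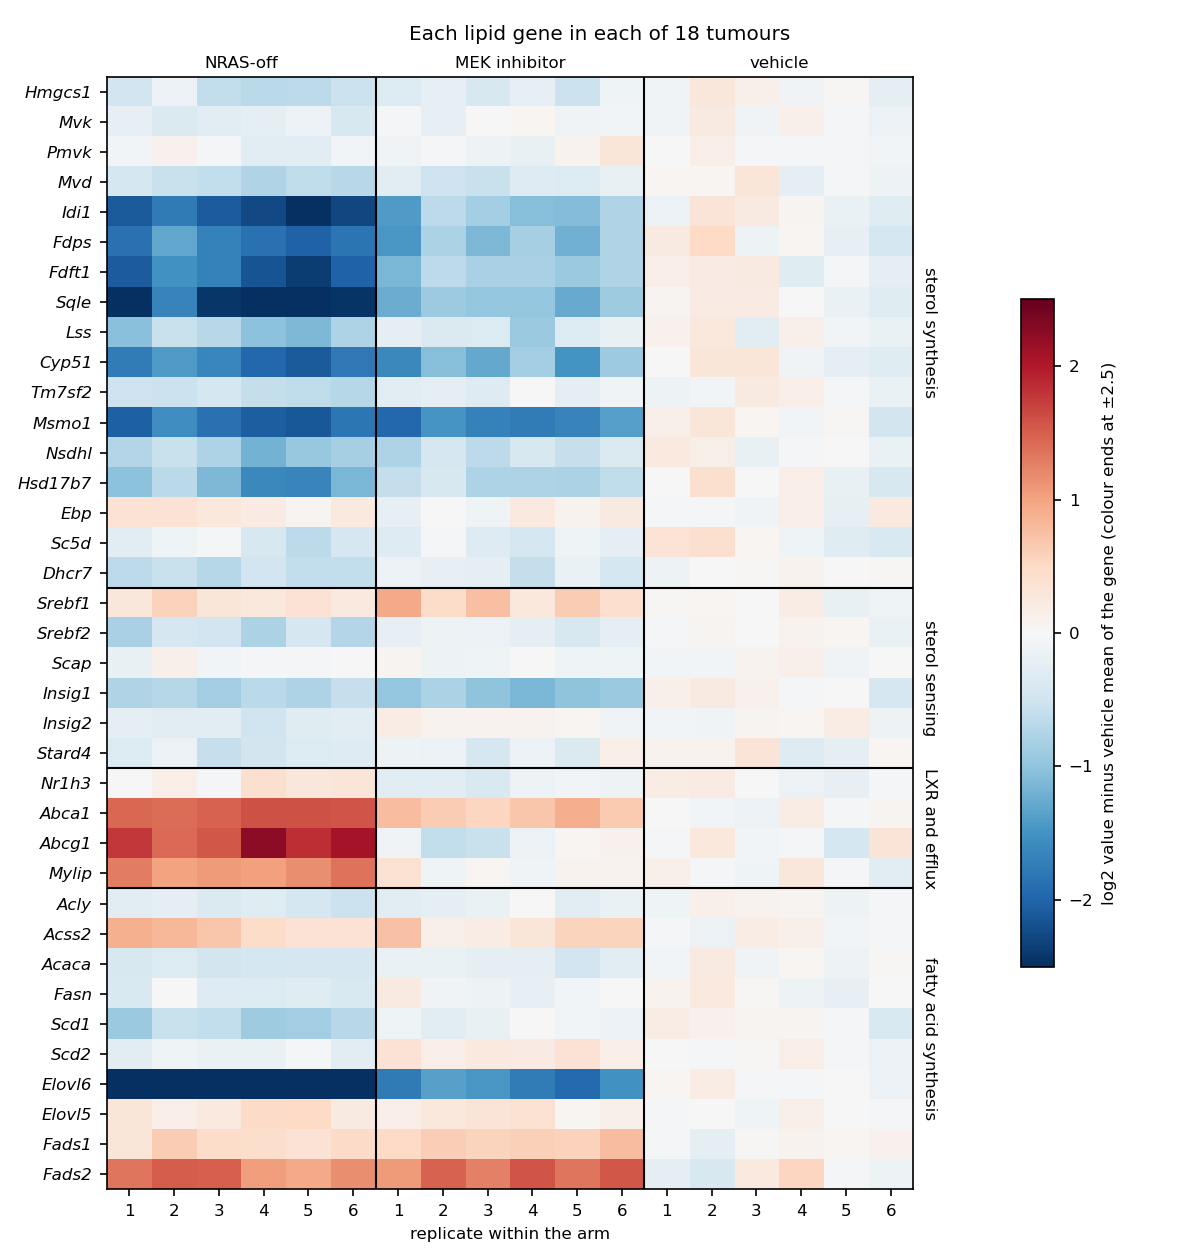
Log2 difference of each of the 37 genes from its vehicle mean in each of the 18 tumours, on a colour scale that ends at −2.5 and 2.5. Rows run by class and columns by arm. Idi1, Fdps, Fdft1, Sqle, Cyp51, Msmo1 and Elovl6 are the lowest rows in the NRAS-off columns, Fads2 is high in the NRAS-off and MEK inhibitor columns, and NRAS-off replicate 2 is the highest of its arm in 12 of 17 sterol synthesis rows.

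Of the 6 sterol sensing genes, 4 fell and 1 rose with the oncogene off, and 2 fell and 1 rose with the inhibitor. Over all genes tested, 59.3% changed with the oncogene off and 45.2% with the inhibitor. Srebf2, the SREBP gene most tied to sterol synthesis, measured 213, 250 and 285 in NRAS-off tumours, 289, 329 and 355 in MEK inhibitor tumours, and 345, 393 and 412 in vehicle tumours. It fell by 0.61 ± 0.08 with the oncogene off and by 0.23 ± 0.08 with the inhibitor (adjusted p = 1.28e-06 and 0.0205), the second call being lost without MEK inhibitor replicate 5 (−0.19), and the NRAS-off arm overlapped neither other arm. Its second probe set fell by 1.40 ± 0.08 and 0.74 ± 0.08. Srebf1 went the other way: it measured 2007, 2063 and 2540 in NRAS-off tumours, 2017, 2471 and 3284 in MEK inhibitor tumours, and 1483, 1712 and 1927 in vehicle tumours. Every treated tumour lay above every vehicle tumour. Srebf1 rose by 0.34 ± 0.10 with the oncogene off and 0.58 ± 0.10 with the inhibitor (adjusted p = 0.00594 and 9.34e-05). The array does not report which Srebf1 isoform was read.

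Insig1, itself an SREBP target that retains SCAP, measured 272, 300 and 335 in NRAS-off tumours, 221, 249 and 289 in MEK inhibitor tumours, and 379, 525 and 600 in vehicle tumours. It was 1.66-fold lower with the oncogene off (−0.73 ± 0.09, adjusted p = 7.43e-07) and 1.96-fold lower with the inhibitor (−0.97 ± 0.09, adjusted p = 4.8e-08). Insig1 was higher in NRAS-off than in MEK inhibitor tumours, by 0.25 ± 0.09 (adjusted p = 0.0259), a call lost after median centring and without NRAS-off replicate 6 or MEK inhibitor replicate 4 (lowest difference 0.21). Insig2, its relative, measured 646, 758 and 772 in NRAS-off tumours, 861, 972 and 1052 in MEK inhibitor tumours, and 835, 907 and 1048 in vehicle tumours. Insig2 fell by 0.31 ± 0.06 with the oncogene off (adjusted p = 0.000258), below every tumour of the other arms, and differed by 0.07 ± 0.06 with the inhibitor (adjusted p = 0.409).

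Scap, the escort of SREBP, measured 922, 1036 and 1159 in NRAS-off tumours, 970, 980 and 1107 in MEK inhibitor tumours, and 995, 1035 and 1155 in vehicle tumours. All arms overlapped, and the differences were −0.03 ± 0.06, −0.06 ± 0.06 and 0.03 ± 0.06 in the 3 comparisons (adjusted p = 0.701, 0.416 and 0.657). A dimmer Scap probe set fell by 0.30 ± 0.08 with the inhibitor. Stard4, which carries sterols between membranes, measured 122, 148 and 172 in NRAS-off tumours, 139, 171 and 216 in MEK inhibitor tumours, and 150, 201 and 243 in vehicle tumours. It fell by 0.36 ± 0.11 with the oncogene off (adjusted p = 0.00715), with overlap, and differed by −0.17 ± 0.11 with the inhibitor (adjusted p = 0.215).

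Of the LXR and efflux genes, 3 of 4 rose with the oncogene off and 1 with the inhibitor, with medians of 1.33 and −0.07. The shares of all genes that rose were 31.8% and 24.3%. Abca1, the pump that loads cholesterol onto apolipoproteins, measured 7664, 8310 and 8776 in NRAS-off tumours, 4211, 4620 and 5437 in MEK inhibitor tumours, and 2624, 2840 and 3280 in vehicle tumours. The arms formed 3 separate levels. Abca1 was 2.85-fold higher with the oncogene off (1.51 ± 0.07, adjusted p = 1.08e-12) and 1.62-fold higher with the inhibitor (0.70 ± 0.07, adjusted p = 8.08e-08). Abcg1, a pump that passes cholesterol to lipoproteins, measured 1040, 1361 and 1839 in NRAS-off tumours, 241, 348 and 410 in MEK inhibitor tumours, and 276, 369 and 474 in vehicle tumours. Its NRAS-off values lay far above both other arms, which overlapped each other. Abcg1 was 3.53-fold higher with the oncogene off (1.82 ± 0.16, adjusted p = 1.07e-08) and differed by −0.20 ± 0.16 with the inhibitor (adjusted p = 0.321), while a dimmer probe set rose by 1.58 ± 0.08 and 0.31 ± 0.08.

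Mylip, a ubiquitin ligase and LXR target that marks lipoprotein receptors for breakdown, measured 2435, 2624 and 3106 in NRAS-off tumours, 1127, 1266 and 1579 in MEK inhibitor tumours, and 1006, 1187 and 1474 in vehicle tumours. It was 2.21-fold higher with the oncogene off (1.15 ± 0.09, adjusted p = 4.9e-09) and differed by 0.07 ± 0.09 with the inhibitor (adjusted p = 0.588). Nr1h3, which encodes the LXR form found mainly in macrophages, liver and fat, measured 82.1, 103 and 118 in NRAS-off tumours, 61.8, 72.4 and 81.4 in MEK inhibitor tumours, and 72.2, 84.6 and 102 in vehicle tumours. Neither arm differed from vehicle at the threshold (0.18 ± 0.09 and −0.21 ± 0.09, adjusted p = 0.078 and 0.0561), but the arms differed from each other by 0.40 ± 0.09 (adjusted p = 0.000945) without overlap. In NRAS-off against MEK inhibitor tumours all 4 genes were higher, by a median of 0.94, where 24.3% of all genes were higher. Abcg1 stood at 2.02 ± 0.16, Mylip at 1.08 ± 0.09 and Abca1 at 0.81 ± 0.07.

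Macrophages use these efflux genes heavily, and their markers moved with the arms. Marker counts stand against all genes tested, of which 31.8% rose and 27.5% fell with the oncogene off. With the inhibitor 24.3% rose and 20.9% fell. With the oncogene off 10 of 12 macrophage markers rose and none fell, and with the inhibitor 9 fell and none rose. Their summed intensity ran from 43963 to 61929 in NRAS-off tumours, 8736 to 19779 in MEK inhibitor tumours and 17858 to 29295 in vehicle tumours, and no macrophage marker was at 0. In MEK inhibitor tumours Abca1 rose while these markers fell. Fibroblast markers rose in 8 of 10 cases and fell in 2 with the oncogene off, and rose in 6 and fell in 1 with the inhibitor, their sum spanning 182763 to 214170 in NRAS-off tumours, 123792 to 130119 in MEK inhibitor tumours and 81905 to 98751 in vehicle tumours. Endothelial markers rose in 8 of 8 cases with the oncogene off while with the inhibitor 1 rose and 1 fell. Skeletal muscle markers rose in 8 of 8 in both. Although the hosts were nude mice, 4 of 5 T cell markers rose with the oncogene off, and none was called with the inhibitor. The sum of the T cell markers spanned 357 to 1573 in NRAS-off, 288 to 350 in MEK inhibitor and 289 to 384 in vehicle tumours. The part of these cells in the efflux, sensing and synthesis results was not tested.

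**Figure D4:**
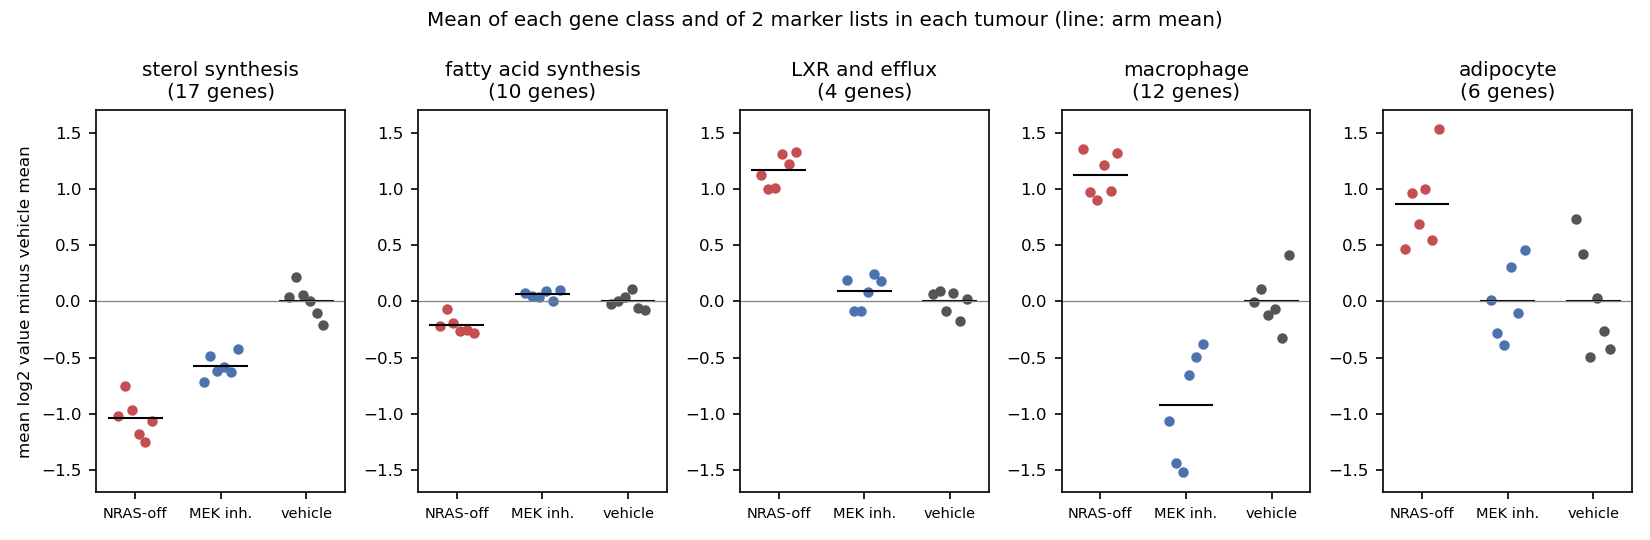
Mean log2 difference from the vehicle mean for the sterol synthesis, fatty acid synthesis, LXR and efflux, macrophage and adipocyte lists, with a point per tumour and the arms in the order NRAS-off, MEK inhibitor and vehicle. Sterol synthesis is lowest in the NRAS-off arm, with the MEK inhibitor arm between it and vehicle, LXR and efflux is high in the NRAS-off arm at 1.00 to 1.33 against −0.09 to 0.25 in the MEK inhibitor arm and −0.18 to 0.09 in the vehicle arm, and the macrophage list is high in the NRAS-off arm and low in the MEK inhibitor arm.

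Fatty acid synthesis genes moved in both directions. With the oncogene off 4 of 10 genes rose and 6 fell, with a median of −0.23. With the inhibitor 5 rose, 3 fell and 2 were not called, with a median of 0.09. Over all genes 31.8% rose and 27.5% fell with the oncogene off, and 24.3% rose and 20.9% fell with the inhibitor. On the route to palmitate 3 of 4 genes fell with the oncogene off and 2 with the inhibitor. Acly, which makes cytosolic acetyl-CoA from citrate, fell by 0.36 ± 0.06 with the oncogene off and 0.19 ± 0.06 with the inhibitor (adjusted p = 8.77e-05 and 0.0203), the second call being lost without vehicle replicate 2 (−0.17). Acaca, the acetyl-CoA carboxylase that commits carbon to fatty acids, fell by 0.41 ± 0.06 and 0.26 ± 0.06, with neither arm overlapping vehicle. Fasn, the fatty acid synthase whose promoter is printed above, measured 877, 911 and 1146 in NRAS-off tumours, 995, 1091 and 1341 in MEK inhibitor tumours, and 990, 1160 and 1361 in vehicle tumours. It fell by 0.29 ± 0.08 with the oncogene off (adjusted p = 0.00593) and differed by −0.05 ± 0.08 with the inhibitor (adjusted p = 0.704). Acss2, which makes acetyl-CoA from acetate, rose instead, by 0.60 ± 0.11 and 0.42 ± 0.11 (adjusted p = 0.000113 and 0.00471).

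Of 6 genes of elongation and desaturation, 3 rose and 3 fell with the oncogene off, and 4 rose and 1 fell with the inhibitor. The shares of all genes that changed were 59.3% and 45.2%. Elovl6, which lengthens palmitate to stearate, measured 158, 179 and 203 in NRAS-off tumours, 327, 409 and 497 in MEK inhibitor tumours, and 1167, 1283 and 1465 in vehicle tumours. It had the lowest log2 difference of all 37 genes with the oncogene off, being 6.77-fold lower (−2.76 ± 0.09, adjusted p = 3.34e-14), and was 3.09-fold lower with the inhibitor (−1.63 ± 0.09, adjusted p = 1.55e-10). The arms did not overlap in any comparison, and both other Elovl6 probe sets also fell in both arms. Fads2, a desaturase of polyunsaturated fatty acid synthesis, measured 748, 930 and 1115 in NRAS-off tumours, 818, 1037 and 1167 in MEK inhibitor tumours, and 283, 361 and 561 in vehicle tumours. Treated tumours overlapped each other and lay above every vehicle tumour. Fads2 was 2.38-fold higher with the oncogene off (1.25 ± 0.14, adjusted p = 3.48e-07) and 2.60-fold higher with the inhibitor (1.38 ± 0.14, adjusted p = 2.57e-07). Of its other probe sets, 1 rose by 1.06 ± 0.10 and 1.31 ± 0.10, and 1 differed by 0.03 ± 0.10 with the oncogene off and rose by 0.34 ± 0.10 with the inhibitor.

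Fads1, the partner desaturase of the same pathway, measured 1060, 1179 and 1338 in NRAS-off tumours, 1225, 1303 and 1478 in MEK inhibitor tumours, and 732, 884 and 926 in vehicle tumours. It rose by 0.45 ± 0.06 and 0.60 ± 0.06 against vehicle (adjusted p = 8.46e-06 and 4.86e-07), with neither arm overlapping it. Elovl5, an elongase of polyunsaturated fatty acids, rose by 0.32 ± 0.07 and 0.22 ± 0.07, though its other probe set differed by 0.18 ± 0.08 and 0.08 ± 0.08 without passing.

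Scd1 and Scd2 encode stearoyl-CoA desaturases, which make monounsaturated fatty acids. Scd1 measured 4144, 4556 and 5372 in NRAS-off tumours, 6436, 7213 and 7950 in MEK inhibitor tumours, and 6083, 8257 and 8899 in vehicle tumours. NRAS-off tumours lay below all others, and the other arms overlapped. Scd1 fell by 0.76 ± 0.09 with the oncogene off (adjusted p = 4.81e-07) and differed by −0.13 ± 0.09 with the inhibitor (adjusted p = 0.247), whereas its dimmer probe set fell by 1.57 ± 0.12 and 0.66 ± 0.12. Scd2 measured 7556, 8210 and 8840 in NRAS-off tumours, 10267, 10756 and 11796 in MEK inhibitor tumours, and 8357, 9144 and 10283 in vehicle tumours. Of the 37 genes it was the 1 called in opposite directions against vehicle, lower by 0.18 ± 0.06 with the oncogene off and higher by 0.25 ± 0.06 with the inhibitor (adjusted p = 0.0119 and 0.00143). Both treated arms overlapped vehicle, and neither other Scd2 probe set was called with the inhibitor, at −0.14 ± 0.13 and 0.20 ± 0.16. The treated arms of Scd2 did not overlap and differed by −0.43 ± 0.06 (adjusted p = 5e-06).

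Between the treated arms 6 of 10 fatty acid genes were lower with the oncogene off and none higher, with a median of −0.16. Over all genes 22.7% were lower and 24.3% higher. Averaged over the 10 genes, tumours spanned −0.28 to −0.07 in the NRAS-off arm, 0.01 to 0.10 in the MEK inhibitor arm and −0.08 to 0.11 in the vehicle arm. Behind these narrow spans lay single genes as far apart as −2.76 for Elovl6 and 1.25 for Fads2 with the oncogene off. Adipocyte markers rose in 3 of 6 cases with the oncogene off and in none with the inhibitor, where 31.8% and 24.3% of all genes rose. The sum of the adipocyte markers ran from 5190 to 8804 in NRAS-off tumours, 1477 to 3515 in MEK inhibitor tumours and 1151 to 3367 in vehicle tumours. Their mean log2 difference from the vehicle mean did overlap between NRAS-off tumours (0.47 to 1.53) and vehicle tumours (−0.50 to 0.74). In MEK inhibitor tumours it spanned −0.39 to 0.46. Of 4 sebaceous gland markers, Plin2 alone rose in each arm. The part of fat cells in these results was not tested.

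Most lists of genes around these pathways held members that moved each way. Counts for these lists stand against all 15005 genes tested. There 59.3% changed with the oncogene off (31.8% rose, 27.5% fell). With the inhibitor 45.2% changed (24.3% rose, 20.9% fell). Of 7 genes that process SREBP, 3 rose and 3 fell with the oncogene off, and 2 rose and 2 fell with the inhibitor. Mbtps2, the protease that frees SREBP from the membrane, fell by 0.75 ± 0.06 and 0.57 ± 0.06, and Pgrmc1, a binding partner of this machinery, rose by 0.39 ± 0.05 and 0.21 ± 0.05. Of 9 genes on the isoprenoid branch, which uses farnesyl diphosphate for purposes other than sterols, 2 rose and 2 fell with the oncogene off and 1 each way with the inhibitor. Fnta and Fntb, the subunits of farnesyltransferase, the enzyme that lipidates RAS, parted: Fnta rose by 0.55 ± 0.09 and 0.64 ± 0.09, and Fntb fell by 0.78 ± 0.07 with the oncogene off and differed by −0.07 ± 0.07 with the inhibitor.

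Of 20 further fatty acid genes, 2 rose and 10 fell with the oncogene off, and 1 rose and 10 fell with the inhibitor. For this list and those below, the shares of all genes that changed were again 59.3% and 45.2%. Fads3, a desaturase relative of Fads1 and Fads2, averaged 679 in NRAS-off, 1742 in MEK inhibitor and 3679 in vehicle tumours, and fell by 2.42 ± 0.11 and 1.08 ± 0.11. Fads1, Fads2 and Fads3, which lie beside each other in the genome, did not share a direction. Acot7, an acyl-CoA thioesterase, fell by 1.77 ± 0.09 and 0.59 ± 0.09, and Hsd17b12, a reductase of fatty acid elongation, by 1.41 ± 0.10 and 0.61 ± 0.10. Of 14 genes of sterol storage and trafficking, 7 rose and 3 fell with the oncogene off, and 4 rose and 4 fell with the inhibitor. Lipa, the lysosomal lipase that frees cholesterol from its esters, rose by 0.69 ± 0.06 and 0.75 ± 0.06, and Lrp8, a lipoprotein receptor, fell by 0.88 ± 0.09 and 0.60 ± 0.09. Of 8 LXR partners and targets, 6 rose and none fell with the oncogene off, and 5 rose and 1 fell with the inhibitor. Smpdl3a, an LXR target that encodes a phosphodiesterase, rose by 1.56 ± 0.09 and 0.36 ± 0.09, and Lpcat3, an LXR target that remodels phospholipids, rose by 0.58 ± 0.06 with the oncogene off and differed by 0.14 ± 0.06 with the inhibitor.

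Other probe sets of the same genes gave a check on these calls. Of 40 further probe sets tested, 32 gave the call of the gene's brightest probe set in NRAS-off against vehicle, 23 in MEK inhibitor against vehicle and 30 in NRAS-off against MEK inhibitor, and none was called in the opposite direction in any of the 3. In the same order, 8, 11 and 9 were not called where the brightest was, and 0, 6 and 1 were called where it was not. Over all 33777 probe sets tested, 54.7%, 40.7% and 40.5% were called in the 3 comparisons. These shares count calls and do not measure agreement between probe sets of a gene.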

How the data were processed

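RNA of 18 tumours was labelled from 10 ug and read on one-colour Affymetrix arrays. The deposited values are probe set intensity values, already summarised and scaled by the authors; MAS5 and RMA are named per the submitters' processing notes, without versions or roles. They were read as linear because all are positive and high in range, and on another scale the folds would change. Of 45037 probe sets, 34945 had 1 gene symbol. Each gene was taken by its brightest probe set, as log2(intensity + 16), and genes at or below the 25th percentile of means (intensity 23.5) were left out, leaving 15005. Differences are on that log2 scale, which understates changes of dim genes.

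All 3 arms entered a joint model in limma 3.58.1 (R 4.3.3), and a gene was called at an adjusted p under 0.05 (Benjamini-Hochberg, separately for each contrast). The fit was tested on simulated data. Members, lists and tests were chosen with earlier results of these data known. Every member is accounted for; values by arm are given for members past 1 log2 unit in a contrast, for those called in opposite directions, and for sensing and LXR genes, and other lists by up to 3 genes with the largest change. The labels do not say whether tumours with the same replicate number belong together. Deviations of tumours with the same number correlated at −0.14 to 0.27, over 0.1 in 8 of 18 pairs. Tumours with different numbers were not compared in this way, so whether tumours pair was not settled. The main model treats them as unpaired. No batch or date is given in the labels, and the number of arrays limits the precision. Alternatives were other filters, probe set rules, normalizations, pseudocounts, priors, thresholds, array weights, a replicate block and leaving out tumours.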

Additional observations from a re-analysis of the deposited data

Results flagged for a closer look

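Over the 37 genes and 3 arms, 111 groups of 6 tumours were examined for a highest or lowest tumour that stood off from the others, by a gap above Dixon's critical value, and 7 had one. Chance alone gives about 1 group in 20. NRAS-off replicate 2, the tumour with the most keratinocyte transcript, was highest in 3 of them. Its Sqle intensity was 393, against 161 to 225 in the rest of its arm. Its Fasn intensity was 1146, against 877 to 928. Its Srebf1 intensity was 2540, against 2007 to 2174. The other 4 tumours differed from gene to gene. Insig2 was 646 in NRAS-off replicate 4, against 737 to 772 elsewhere in the arm. Acaca was 381.0 in MEK inhibitor replicate 5, against 437 to 472, and Lss was 106.0 in MEK inhibitor replicate 4, against 164 to 188. Pmvk was 307 in vehicle replicate 2, against 257 to 272. Leaving out NRAS-off replicate 2 left the number of genes changed at 34 for NRAS-off against vehicle and 25 for MEK inhibitor against vehicle, and gave 29 for NRAS-off against MEK inhibitor, where Hmgcs1, Msmo1, Fads1 and Srebf1 were then called. Of all 15005 genes, 4667, 3674 and 3587 then rose and 4066, 3161 and 3365 fell, in the same order. The part of keratinocyte admixture in these values was not tested.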

How the results depend on the processing

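Across 33 alternatives and 15 counts and medians, 485 of 495 values stayed within the spread or within 1.5 times the main value. Part of this agreement was fixed beforehand. The medians could not move with another threshold or prior or with the replicate block. Nor could they when the tumour left out belonged to the third arm. A 2-fold threshold left 12, 6 and 6 genes changed and 7, 4 and 3 sterol synthesis genes fallen, for NRAS-off against vehicle, MEK inhibitor against vehicle and NRAS-off against MEK inhibitor. Of all 15005 genes, that threshold left 942, 278 and 674 rising and 633, 314 and 412 falling, in the same order. For NRAS-off against vehicle the sterol synthesis median was −0.66 with the mean of all probe sets and −0.68 with a pseudocount of 64, the fatty acid median −0.30 with the most variable probe set, and the LXR and efflux median 0.97 with the mean of all probe sets. The 1 reversal was Acly for NRAS-off against MEK inhibitor, at 0.0020 with the most variable probe set. Why these values moved was not tested. With 1 tumour left out, genes changed ranged over 33 to 35, 24 to 27 and 22 to 29 in the 3 comparisons, and sterol synthesis genes fallen over 14 to 15, 12 to 14 and 11 to 14. The sterol synthesis median then ranged over −0.89 to −0.77, −0.46 to −0.36 and −0.36 to −0.29. Of all 15005 genes, 4558 to 4833, 3350 to 3674 and 3441 to 3670 rose in these refits. Those that fell numbered 3902 to 4181, 2962 to 3161 and 3135 to 3435. The replicate block used numbers that the labels do not describe as pairs. It gave 34 genes changed for NRAS-off against vehicle, where 4701 of all genes rose and 4027 fell, and altered 1 of 111 gene calls. That call was Ebp for NRAS-off against MEK inhibitor, which then passed at 0.21. Of 3663 values of single genes, 3470 kept direction and call, 129 lost the call and 63 gained it. Calls near the threshold (Acaca and Acly for NRAS-off against MEK inhibitor, Sc5d for NRAS-off against vehicle, Tm7sf2 for MEK inhibitor against vehicle) were lost in 6 to 10 of the 18 refits with 1 tumour left out, and Insig1 and Mvd for NRAS-off against MEK inhibitor in 2 each. For any comparison 6 of the 18 refits left out a tumour of the third arm. Those refits changed the pooled spread but not the difference. Both tumours with the most keratinocyte transcript were left out together in an alternative chosen after seeing the data, which gave 34, 25 and 26 genes changed. Of all 15005 genes, 4652, 3493 and 3489 then rose and 4046, 3096 and 3206 fell.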
